A study of Junonia coenia with 24 samples.

Results

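The hindwing-only intervals are stretches of open chromatin that the deposited hindwing table of the buckeye butterfly Junonia coenia lists and its forewing table does not. Members were chosen by 2 values, overlap and count: an interval qualified if it shared no base with any forewing interval on the same contig and had a summed count of at least 100 over the 12 hindwing libraries. This held for 4091 of the 488675 hindwing intervals, on 409 of 959 contigs, or for 1.72% of the 237591 hindwing intervals that reached the same summed count. Open chromatin was measured by ATAC-seq, in which a hyperactive transposase cuts and tags accessible DNA in nuclei, and an interval with more reads was cut more often. The material was whole wing tissue of animals kept at about 27 °C. The labels name 4 stages for each wing: the 5th instar, which is the last larval stage, the prepupa, and pupae aged 72 h or 6 d, the latter with titles that read d7. Each of the 8 groups of wing and stage held 3 libraries, and the labels give no strain, sex, transgene or treatment for any group. Nothing in the labels states that the replicates were separate animals, and p-values here therefore speak of the spread between these libraries alone.

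In insects the wings of the middle and the hind thoracic segment start from similar discs, and the Hox gene Ultrabithorax, active in the hindwing and not in the forewing, gives the hindwing its identity. Sites that regulate genes are usually open where they are in use, so that an accessible site in one wing alone is a common starting point when looking for sites tied to wing identity. A hindwing-only interval has no forewing count here, so absence from the forewing list does not show a closed site in the forewing. In Drosophila, pulses of the steroid hormone ecdysone around pupation act through the receptor EcR and change which wing sites are open. The study's title names EcR and the transcription factor spineless. The deposited tables give contig, start and end of each interval and no gene, so none of the intervals is assigned here to a gene, an exon or an intron, and the wing tissue was not checked against marker genes. Contig coordinates are those of the tables with starts counted from 1, and no source used here gives the genome build behind them.

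Absence from the forewing list was a property of weakly covered intervals. Of hindwing intervals with 1 to 24 counts summed over the 12 libraries, 62.6% shared no base with a forewing interval, and of those with 50 to 99 counts 21.1% did. The share was 3.83% from 100 to under 200 counts, 0.152% from 200 to under 400 and 0.00851% from 400 to under 800, which were 3 of 35239 intervals. All 22978 hindwing intervals with 800 or more counts overlapped a forewing interval. The hindwing-only intervals accordingly lay close to the minimum: their median sum was 119 counts and their highest 591, and 118 of the 4091 had 200 or more. There were 159 members with exactly 100 counts and 139 with 101, while 158 intervals without a forewing overlap had 99 counts and 170 had 98, just outside the rule. Among the first of these, an interval on contig 000000F at 2393520 to 2393695 had 100 counts, and one on the same contig at 2035244 to 2035421 had 99.

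The mirror set, forewing intervals with no hindwing overlap and at least 100 forewing counts, held 5264 of 244973 intervals. Its share without overlap was 4.32% from 100 to under 200 counts, and the forewing table still had intervals without overlap at 800 or more counts (0.025%), where the hindwing table had none.

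Hindwing-only intervals were of ordinary width. They spanned 93 to 853 bp with a median of 179 bp, while 99843 hindwing intervals of 100 to under 200 counts that did overlap a forewing interval had a median of 186 bp. Most had a forewing interval nearby: the median gap was 347 bp, 1293 members (31.6%) lay within 200 bp of one and 5 touched one. At the other end, 567 members (13.9%) were more than 1 kb from any forewing interval, 67 more than 5 kb and 26 more than 10 kb. The median gap of the mirror set was 164 bp. The summed count of a hindwing-only interval was spread over many libraries. Reads were present in all 12 libraries for 3210 members (78.5%), against 82.9% of the overlapping intervals of 100 to under 200 counts. The library with the most counts held a median of 21.2% of a member's sum, and it held more than 50% of the sum for 4 members. A whole group of 3 libraries was without reads at 4 members in the 5th instar, at 4 in the 72 h hindwing and at 17 in the 6 d hindwing. No member was without reads in all prepupa libraries.

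Depth and stage labels of the libraries bear on the results that follow. Total counts in peaks were 6977525 to 14795457 per hindwing library, and the 3 prepupa libraries, with 11955504 or more each, were the deepest. Stage names also did not line up between the wings. Over 127816 matched intervals, taken as deviations from the mean of each wing, the larval hindwing correlated best with the larval forewing (r = 0.839 across intervals), the prepupa hindwing to the 72 h forewing (0.535, and 0.245 with the forewing of the same name), the 72 h hindwing to the 6 d forewing (0.890, same name -0.319) and the 6 d hindwing to the prepupa forewing (0.918, same name -0.533). Within the prepupa hindwing, the correlation between replicates ran from 0.814 to 0.914, while no other stage had a pair below 0.862. Prepupa replicates 1 and 2 were closest to 72 h forewing libraries and replicate 3 to a prepupa forewing library. Groups keep their labelled stage names here. The absence of an interval from the forewing list does not depend on these names, because 1 list serves all 4 forewing stages. Whether every hindwing stage had a counterpart among the forewing libraries was not tested.

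Among the stages, the prepupa libraries gave the hindwing-only intervals the largest share of their counts. Prepupa libraries held 34.2% of all hindwing counts, 38.2% of the counts in the overlapping intervals of 100 to under 200 counts, and 45.7% of the counts in the hindwing-only intervals. The hindwing-only intervals took 0.669%, 0.443% and 0.659% of the counts of prepupa replicates 1, 2 and 3, which is 0.590% ± 0.128 (SD, n = 3). In the 6 d hindwing the shares were 0.493%, 0.472% and 0.518%, in the 5th instar 0.441%, 0.306% and 0.318%, and in the 72 h hindwing 0.258%, 0.285% and 0.297%. The 72 h libraries were thus the lowest of the 12, prepupa replicates 1 and 3 were the highest, and prepupa replicate 2 lay below all 3 libraries labelled 6 d. For 3688 members (90.1%) the highest raw count was in a prepupa library, and for 2243 of them in replicate 1, the deepest hindwing library. In the forewing table the deepest group was the 72 h group, which held 40.9% of all forewing counts and 61.2% of the counts of the mirror set. The minimum of 100 was set on raw counts, in which a deep library weighs more, so a high prepupa count and membership are linked by the rule. The part of depth in the prepupa share was not tested.

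**Figure D1:**
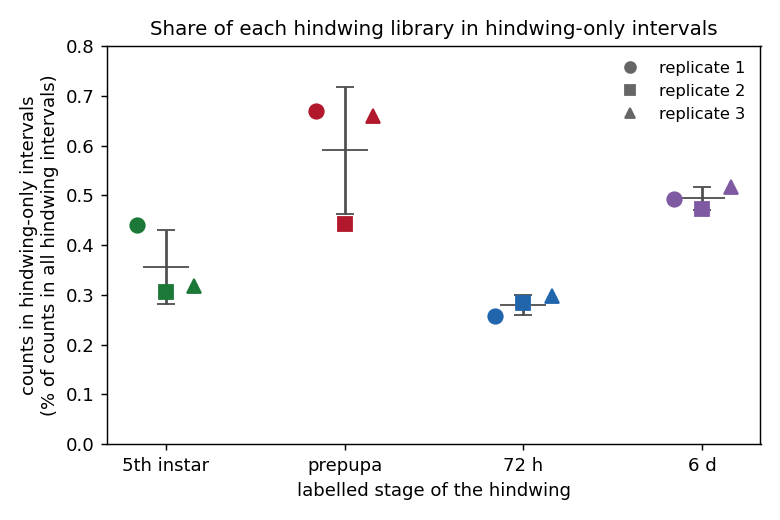
Share of the counts of each hindwing library that fell in the 4091 hindwing-only intervals (y axis, % of counts in all hindwing intervals), by labelled stage (x axis). Points are libraries, with marker shape for the replicate number, and the horizontal line with bars is the mean and SD of 3 libraries. The prepupa group had 0.590% ± 0.128 and the 72 h group 0.280% ± 0.0203.

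The choice of members was repeated with every library scaled to equal depth, a setting added after the data were seen. This gave 3595 members, of which 3502 were also members by raw counts. Without prepupa replicate 1 the summed count left 1794 members, and without prepupa replicate 3 it left 2040. Leaving out any other library left 2811 to 3444.

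After scaling for depth and composition with TMM factors, the prepupa was the stage with the highest level for most hindwing-only intervals. Of the 4091 members, 3840 passed the filter on low counts and entered the tests. The 251 that did not had sums of 100 to 141 counts. The prepupa had the highest mean CPM (counts scaled to a common library size) for 53.6% of the 3840, the 6 d hindwing for 23.5%, the 5th instar for 11.8% and the 72 h hindwing for 11.1%. Among 97493 tested intervals of 100 to under 200 counts that overlapped a forewing interval, the prepupa led for 22.9%, and among all 258640 tested intervals for 20.8%. Scaled by library totals alone, the prepupa led for 58.7% of the hindwing-only intervals. It led for 49.7% of the 3458 tested members chosen after equal-depth scaling, and for 58.0% without prepupa replicate 2. Whole wings were assayed, so an open site in fewer cells and a less accessible site in each cell cannot be told apart.

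**Figure D2:**
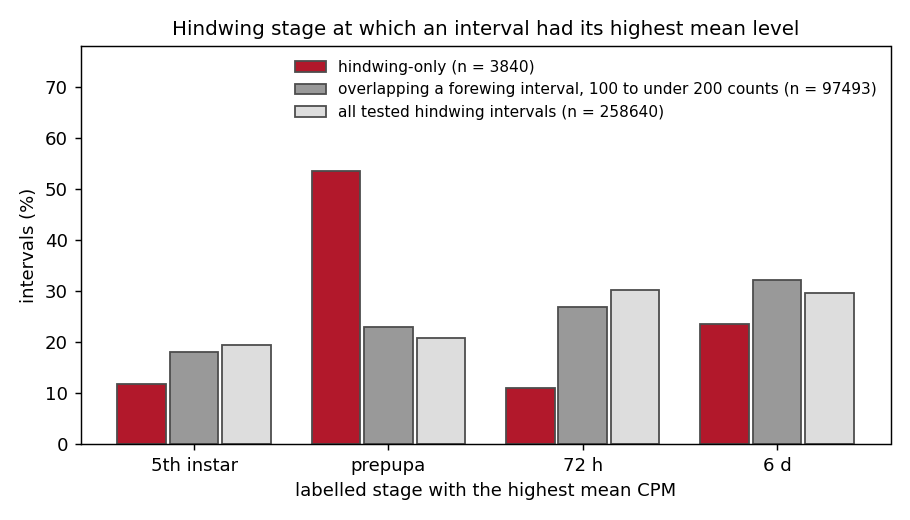
Percentage of tested intervals (y axis) whose mean TMM-scaled CPM over 3 libraries was highest at each labelled hindwing stage (x axis), for hindwing-only intervals, for overlapping intervals of 100 to under 200 counts and for all tested hindwing intervals. The prepupa led for 53.6% of the hindwing-only intervals and for 20.8% of all intervals. With library totals in place of TMM the value for the hindwing-only intervals was 58.7%.

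Levels were low. The mean over the 12 libraries had a median of 1.06 CPM, against 1.90 CPM over all tested intervals, and 11 hindwing-only intervals reached 5 CPM in their highest group. The median member had 1.41, 1.20 and 1.40 CPM in prepupa replicates 1, 2 and 3. It had between 0.821 and 0.826 CPM in the 72 h libraries, between 0.822 and 1.07 CPM in the 5th instar and between 1.02 and 1.14 CPM in the 6 d hindwing. Prepupa and 72 h libraries did not overlap in this median. Within the prepupa, replicate 2 was the lowest of the 3 libraries at 1980 members (51.6%) and the highest at 962 (25.1%), whereas among all tested intervals it was lowest at 39.3% and highest at 39.3%. At 508 members (13.2%) replicate 2 was more than 2-fold below both other libraries, against 8.05% of all tested intervals. At 106 members (2.76%) it was more than 2-fold above both, against 8.38% of all.

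Change over the 4 hindwing stages was found for 566 of the 3840 tested members (14.7%) by edgeR's quasi-likelihood F test with an adjusted p under 0.05, where 39.1% of all tested hindwing intervals passed. The intervals of 100 to under 200 counts that overlap the forewing list passed at 25.3%. Their median sum was 140 counts, against 119 for the hindwing-only intervals. Counts were thus not matched, and the smaller share among hindwing-only intervals is given as a description. DESeq2 called 548. Of the 566, the prepupa had the highest mean at 279 (49.3%), the 6 d hindwing at 127, the 5th instar at 86 and the 72 h hindwing at 74.

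Each stage was then set against the mean of the other 3, a contrast that does not depend on the order of the labels. In the prepupa 143 members were higher (3.72%, with 2.6% of all tested intervals called in that direction) and 3 were lower (0.0781%, against 2.35%). The median difference of the members was 0.56 on the log2 scale, against 0.11 over all tested intervals. The count of higher members was 57 with DESeq2. It also depended on single libraries, with 47 higher members without prepupa replicate 1 and 78 without prepupa replicate 3. The count of lower members ran from 0, without prepupa replicate 3, to 4, without 72 h replicate 2, and it was 1 without 5th-instar replicate 3, prepupa replicate 1 or 2, or 6 d replicate 1 or 3. The 72 h hindwing showed the reverse balance, with 85 members higher (2.21%, against 18.5%) and 215 lower (5.6%, against 9.31%). The median difference there was -0.32. Without 72 h replicate 1 the counts were 46 higher and 94 lower, and without 72 h replicate 2 there were 131 lower.

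In the 5th instar 69 members were higher (1.80%, against 8.52% of all tested intervals) and 28 lower (0.729%, against 3.06%). In the 6 d hindwing 176 were higher (4.58%, against 12.1%) and 242 lower (6.30%, against 16.3%). Leaving out any single 5th-instar library left 36 to 43 members higher in the 5th instar, and without replicates 2 and 3 of that group 9 and 6 members were lower. Leaving out any single 6 d library left 80 to 90 members higher in the 6 d hindwing, and 155 were lower without 6 d replicate 1. The prepupa was the contrast in which the hindwing-only intervals exceeded the rate of all tested intervals, in the higher direction. In the other contrasts they fell below it in both directions. The rule summed these same counts and the prepupa libraries were the deepest, so the prepupa excess is linked to membership and is a description.

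By a simpler count, all 3 libraries of a stage lay above or below all 9 others. In the prepupa this held for 156 members above (4.06%, with 1.49% of all tested intervals) and 1 below (0.026%, against 0.723%). In the 72 h hindwing it held for 24 above (0.625%, against 10%) and 140 below (3.65%, against 4.43%), and in the 6 d hindwing for 90 above (2.34%, against 6.74%) and 130 below (3.39%, against 7.64%). In the 5th instar 43 lay above (1.12%, against 3.98%) and 41 below (1.07%, against 1.49%). Among the directions, the prepupa above was again where the hindwing-only intervals exceeded the background, which is a description for the same reason.

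The balance of higher and lower calls depended on the scaling, because TMM factors ran from 0.734 to 1.27 and differed between stages. With library totals alone the median of all tested intervals moved by -0.16 in the 5th instar, 0.23 in the prepupa, -0.49 in the 72 h hindwing and 0.42 in the 6 d hindwing (log2). The members then split into 36 higher and 46 lower in the 5th instar, 368 and 1 in the prepupa, 29 and 757 in the 72 h hindwing, and 539 and 126 in the 6 d hindwing. The 5th-instar and 6 d balance thus turned, and every balance moved in the direction of the common shift. Shares of all tested intervals called under library totals are not given here, so these counts do not set the members apart from other intervals.

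Among the named intervals called higher in a stage, the one with the highest group mean was higher in the prepupa. It also had the largest prepupa difference. This interval lay on contig 000408F at 32290 to 32642 (353 bp), 9654 bp from the nearest forewing interval, with 521 counts in all. It had 101, 304 and 84 counts in prepupa replicates 1 to 3, or 6.2, 30.4 and 5.87 CPM, and 0 in every 6 d library. The other 9 libraries ran from 0 to 2.28 CPM with a median of 0, so that the prepupa libraries did not overlap them. The prepupa mean of 14.2 ± 14.1 CPM (SD, n = 3) was 26.5 times the mean of the other 9 libraries, and the adjusted p of edgeR's test was 6.04e-05. The 6 d hindwing, with no reads, was at least 46.9-fold lower than the mean of the other 9 libraries, taking 3 counts over the group as the floor. Without prepupa replicate 2 this bound was 18.8-fold. The size of the prepupa mean rests on replicate 2, while the call does not: without that library the interval was still called.

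A second interval, on contig 000006F at 2580733 to 2581055 (339 counts, 521 bp from the forewing list) had 5.53, 12.6 and 4.20 CPM in the prepupa. In the other 9 libraries it had 0.553 to 1.42 CPM, with a median of 0.913. No library of another stage came near the lowest prepupa library. The prepupa exceeded the mean of the others by 2.96 on the log2 scale (SE 0.33, edgeR adjusted p = 3.81e-05), and by 2.37 without replicate 2.

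Contig 000047F carried another at 961352 to 961726, with 3.32, 10.2 and 2.59 CPM in the prepupa and 0.137 to 1.38 CPM elsewhere. Its difference was 2.80 (SE 0.41, edgeR adjusted p = 0.000426), and 1.98 without replicate 2. In all of these the groups did not overlap and replicate 2 was the highest prepupa library, in contrast to the typical hindwing-only interval, at which it was the lowest. Intervals with lower levels, chosen after their values were seen, included one on contig 000537F at 56626 to 56905. It had 65, 45 and 15 counts in the prepupa and 0 to 5 in the others. Another on contig 000008F at 3326122 to 3326437 had 32, 48 and 21 counts in the prepupa and 0 to 5 in the others. Both passed the same test, with edgeR adjusted p-values of 0.000279 and 0.000158.

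Of the 3 members called lower in the prepupa, 1 had no overlap between libraries, and it was chosen after its values were seen. It lay on contig 000053F at 389025 to 389300, with 1.04, 0.5 and 0.350 CPM in the prepupa and 1.24 to 3.01 CPM in the other 9 libraries (log2 difference -1.6, SE 0.41, edgeR adjusted p = 0.0282). This call was lost without prepupa replicate 2 or 3, without 5th-instar replicate 2 or without 6 d replicate 3, and with library totals, at log2 differences from -1.53 to -1.29.

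Of the intervals called higher in the larva, 2 met the minimum of 5 CPM without overlap between libraries. The first lay on contig 000025F at 974795 to 975088 (294 bp, 333 counts), 152 bp from a forewing interval. It had 53, 52 and 54 counts in the 5th instar, or 8.07, 7.12 and 7.45 CPM, a mean of 7.55 ± 0.478 (SD, n = 3). Prepupa libraries had 1.47, 1.80 and 2.17 CPM, 72 h libraries 0.963, 1.48 and 0.985 CPM, and 6 d libraries 3.65, 2.64 and 2.54 CPM. The larval libraries stood above all others, the 6 d libraries came next, and the 72 h libraries overlapped the prepupa. The 5th instar exceeded the mean of the other stages by 2.04 on the log2 scale (SE 0.24, edgeR adjusted p = 6.37e-06), and leaving out any one library kept the difference between 1.99 and 2.11. The second, on contig 000158F at 969504 to 969785 had 5.63, 6.58 and 7.04 CPM in the 5th instar and 0.901 to 2.10 CPM in the other 9 libraries (2.16, SE 0.27, edgeR adjusted p = 1.27e-05). There the 3 later stages shared one low level, with means of 1.45, 1.36 and 1.47 CPM.

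A pair of intervals almost without larval reads, chosen after their values were seen, lay on contig 000386F at 68505 to 68656 and on contig 000475F at 34042 to 34202. Each had 2 counts in all over the 3 larval libraries. The other 9 libraries had 6 to 24 counts at the first and 5 to 22 at the second, so that the groups did not overlap (edgeR adjusted p = 0.00244 and 0.00168). Both also lay several kilobases from the forewing list, at 4152 and 4881 bp.

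At 6 d and 72 h no called member reached 5 CPM in its higher group while its libraries stayed apart from the rest, and the examples here were chosen after their values were seen. On contig 000164F at 1097495 to 1097795 the 6 d libraries had 23, 21 and 28 counts, or 2.54, 2.13 and 3.55 CPM. The 5th-instar libraries had 0.913, 0.685 and 0.828 CPM, the prepupa libraries 0.307, 0.4 and 0.839 CPM, and the 72 h libraries no read. The 6 d libraries thus stood above all others (edgeR adjusted p = 5.66e-05), with a mean 6.21 times that of the other 9 libraries. The 72 h group was at least 8.78-fold below the mean of the others.

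Other intervals had reads in every group but the 6 d hindwing. An interval on contig 000050F at 789665 to 789956 had 11, 21 and 15 counts in the 5th instar, 44, 19 and 8 in the prepupa, 18, 21 and 15 in the 72 h hindwing, and no read in any 6 d library. The 6 d group was therefore at least 20-fold below the mean of the other 9 libraries (edgeR adjusted p = 6.72e-05). On contig 000011F at 3356714 to 3356972, there were 18, 22 and 20 counts in the 5th instar, 14, 16 and 8 in the prepupa, 5, 2 and 9 at 72 h and none at 6 d (at least 13.9-fold lower at 6 d, edgeR adjusted p = 0.000241). Here the lowest 5th-instar library, at 2.74 CPM, was above the highest of the others, at 1.6 CPM. The reverse example, without reads at 72 h, was on contig 000040F at 784722 to 784936, with 2 to 28 counts in each of the other 9 libraries (edgeR adjusted p = 0.000718).

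The examples higher at 72 h likewise stayed below 5 CPM. An interval on contig 000065F at 1325000 to 1325295 had 3.99, 4.61 and 2.13 CPM in the 72 h libraries and 0 to 1.65 CPM in the others (log2 difference 2.77, SE 0.53, edgeR adjusted p = 0.000492). On contig 000547F at 75335 to 75572 the 72 h libraries had 3.85, 2.47 and 2.13 CPM and the others 0 to 1.30 CPM (2.67, SE 0.45, edgeR adjusted p = 0.000111). Neither overlapped the other stages.

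**Figure D3:**
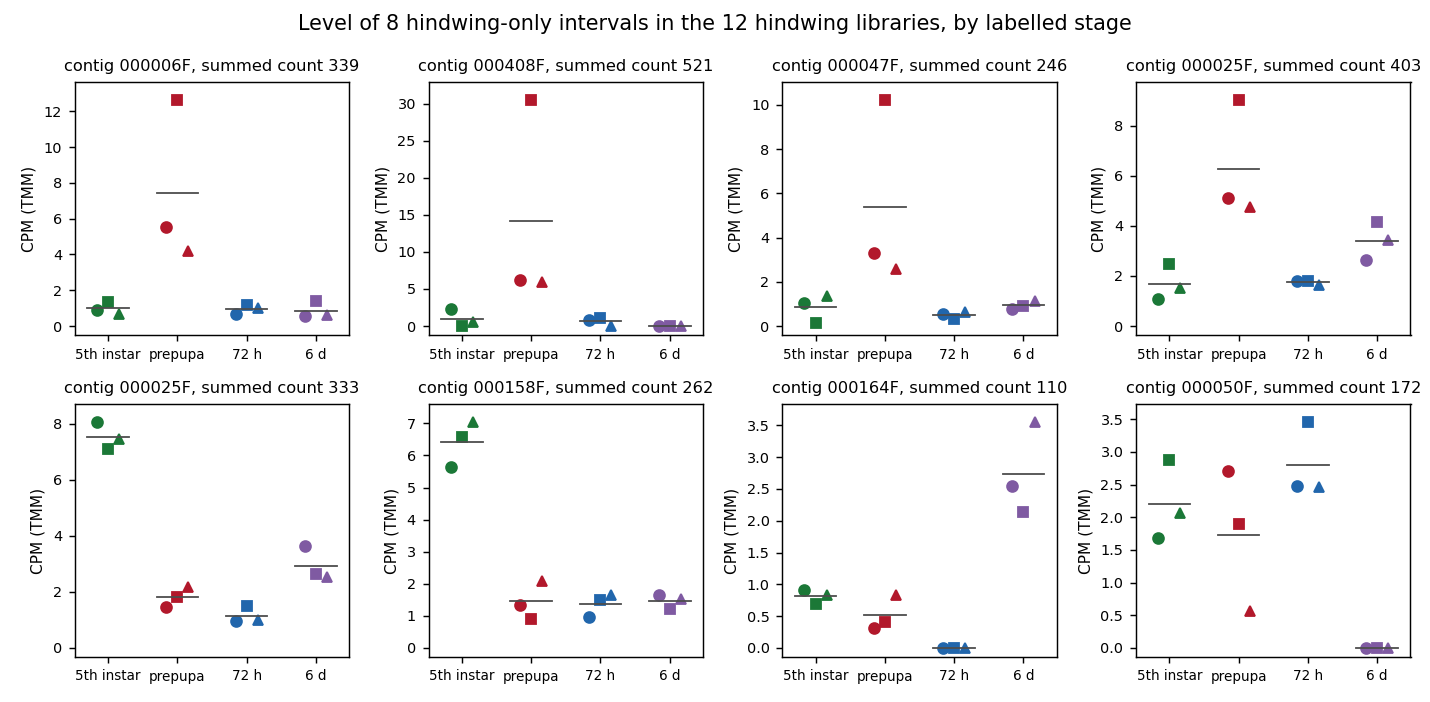
Level of 8 hindwing-only intervals in each of the 12 hindwing libraries (y axis, TMM-scaled CPM, with its own scale in each panel) by labelled stage (x axis). Points are libraries, circles, squares and triangles are replicates 1, 2 and 3, and lines are means of 3 libraries. The interval on contig 000408F reached 30.4 CPM in prepupa replicate 2, and the larval interval on contig 000025F had 7.12 to 8.07 CPM in the 5th instar. The interval on contig 000164F had no reads at 72 h, and the interval on contig 000050F had none at 6 d.

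The hindwing-only interval with the highest sum was also the widest. On contig 000082F, 575232 to 576084 (853 bp) held 591 counts, and it was the one member with a mean over the 12 libraries of at least 5 CPM. Its levels were 0.609, 4.52 and 7.45 CPM in the 5th instar and 4.91, 19.7 and 6.57 CPM in the prepupa. They were 3.44, 0 and 2.79 CPM at 72 h and 3.54, 1.22 and 5.46 CPM at 6 d. The groups overlapped throughout, and the stages did not differ past the threshold (joint edgeR adjusted p = 0.0534). On contig 000897F an interval at 19950 to 20522 (573 bp, 368 counts) had 5.96, 1.80 and 8.04 CPM in the prepupa. It had no reads in 72 h replicate 3 and in 6 d replicate 3, where the other libraries of those groups had 2.13 to 4.09 CPM. Its stage test gave an edgeR adjusted p of 0.185. An interval of 655 bp on contig 000069F at 75500 to 76154 had 3.65, 3.45 and 8.88 CPM at 6 d and 1.51 to 4.10 CPM elsewhere, so that the 6 d libraries overlapped the highest of the others. It was called higher at 6 d by 1.26 on the log2 scale (SE 0.31, edgeR adjusted p = 0.00457), but without 6 d replicate 3, the library at 8.88 CPM, the difference was 0.69 and the call was lost (edgeR adjusted p = 0.144). Contig 000069F is one of the contigs, described further on, whose members were raised in that library.

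Of the 67 members more than 5 kb from any forewing interval, 62 were tested, and the mean level was highest in the prepupa at 45 of them, at 6 d at 11, in the 5th instar at 4 and at 72 h at 2. The farthest, at 37260 bp, was the interval on contig 000318F at 512931 to 513136, the last hindwing interval of that contig. It had 2.09, 3.0 and 0.909 CPM in the prepupa and 0 to 1.22 CPM in the others, so that the groups overlapped (log2 difference 1.90, SE 0.50, edgeR adjusted p = 0.0293). The next were a pair on contig 000445F at 15797 to 16130 and 16350 to 16660, 35646 and 35116 bp from the forewing list. The first had 64, 3 and 59 prepupa counts and the second 52, 8 and 53, so that replicate 2 was far below replicates 1 and 3 at both. Both had no reads in 6 d replicate 3 and in 72 h replicate 3. The second was called higher in the prepupa (2.44, SE 0.57, edgeR adjusted p = 0.0147), and the first was not (edgeR adjusted p = 0.0941).

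At the steady end, with no minimum on the level and chosen after the values were seen, contig 000101F at 1564698 to 1564938 had 1.22 to 2.46 CPM over the 12 libraries. Its coefficient of variation was 0.18, the lowest among the tested members. Contig 000053F at 853231 to 853418 (0.20) and contig 000028F at 1842474 to 1842729 (0.21) followed. None of these differed between stages past the threshold, with joint edgeR adjusted p-values of 0.845, 0.900 and 0.935.

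The hindwing-only intervals have no forewing count, so their surroundings were read from matched intervals, which are best pairs of a hindwing and a forewing interval with at least 80% reciprocal overlap. Of 127816 tested pairs, 9391 lay within 5 kb of a hindwing-only interval. Among these, 6 were higher in the hindwing over the mean of the 4 stage labels (0.0639%, where 0.011% of all tested pairs were called) and 2 were lower (0.0213%, against 0.0352%). The median difference was 0.07 on the log2 scale within 5 kb, 0.08 within 1 kb and -0.02 beyond 20 kb. The difference was positive for 60.6% of the pairs within 5 kb and for 47.7% of the pairs beyond 20 kb. All of these pairs come from the same 24 libraries, so these percentages are a description.

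All 6 pairs higher in the hindwing were in one stretch of contig 000025F. The stretch was defined after the data were seen, from the first to the last of the 8 pairs called higher on that contig, 951085 to 1099460 (148 kb). Outside it, edgeR called none of 9370 pairs within 5 kb of a member higher at an adjusted p under 0.05. At an unadjusted edgeR p under 0.05, 632 of them were higher, and DESeq2 called 23 higher. Over all 9391 pairs within 5 kb DESeq2 called 23 lower. In either direction, 916 of those 9391 had an unadjusted edgeR p under 0.05, beside 12238 of all 127816 tested pairs. With library totals edgeR called 2 outside the stretch, and with the replicate number as a block 1. In the larva, where wing labels and profiles lined up, 3 pairs within 5 kb of a member were higher in the hindwing (0.00548% of all tested pairs were called) and 1 was lower (0.00235%), and the 3 were again in this stretch.

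The stretch held 12 hindwing-only intervals among its 152 hindwing intervals of 100 or more counts (7.89%). The rest of the contig held 50 among 1890 (2.65%). None of its 148 forewing intervals of 100 or more counts was missing from the hindwing list. Of the 39 matched intervals tested within it, 8 were called and 37 had a positive difference. The median difference was 0.62 on the log2 scale, against 0.06 over the rest of the contig, which is a description because called intervals set the limits of the stretch. All 12 members lay 104 to 422 bp from a forewing interval, and the nearest forewing interval overlapped a hindwing interval at all 12.

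**Figure D4:**
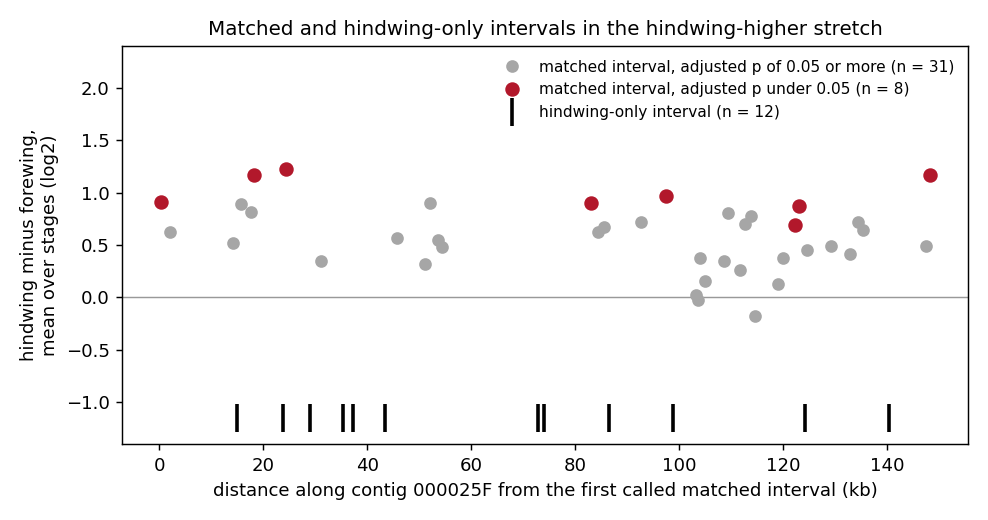
Mean difference of hindwing and forewing over the 4 stage labels (y axis, log2) of the 39 matched intervals in the stretch of contig 000025F, by distance from its first called interval (x axis, kb). Red points have an edgeR adjusted p under 0.05 and grey points do not, and the vertical ticks mark the 12 hindwing-only intervals. Of the 39 matched intervals, 37 lie above 0.

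The 12 members did not share one stage pattern. The mean level was highest at 6 d for 6 of them, in the 5th instar for 3 and in the prepupa for 3, and for none at 72 h. The joint test called 5 of the 12 (41.7%), where 14.7% of all tested members and 39.1% of all tested intervals passed. The larval interval at 974795 to 975088, described above, was among these 5. The largest, at 1091253 to 1091678 (403 counts), had 5.10, 9.01 and 4.76 CPM in the prepupa, 2.65, 4.16 and 3.43 at 6 d, 1.07, 2.47 and 1.52 in the 5th instar and 1.79, 1.81 and 1.64 at 72 h. Its prepupa libraries stood above the others, and the difference was 1.52 (SE 0.27, edgeR adjusted p = 0.00207). At 1049770 to 1050135 the counts were 41, 28 and 23 at 6 d, 18, 12 and 27 in the prepupa, 8, 5 and 4 in the 5th instar and 3, 9 and 7 at 72 h. The 6 d group was higher by 1.71 there (edgeR adjusted p = 0.00106). At 986368 to 986588 the 6 d group was higher by 1.77 (edgeR adjusted p = 0.0107), with 28, 15 and 13 counts at 6 d. The interval at 1023777 to 1024002 had 32, 30 and 34 counts in the prepupa and 0 to 10 in the others, and the prepupa was higher by 1.78 (edgeR adjusted p = 0.0195). The 72 h libraries were called lower than the mean of the other stages at 4 of the 12 (33.3%), where 9.31% of all tested intervals were.

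The larval interval had a close neighbour that was also high in the larval hindwing. The matched interval at 975254 to 975658, 165 bp away, had 28.1, 31.7 and 34.9 CPM in the 5th-instar hindwing and 1.80, 2.83 and 2.37 CPM in the 5th-instar forewing. The wings did not overlap, and the difference was 3.74 on the log2 scale (SE 0.49, edgeR adjusted p = 0.00225). The later hindwing groups had 5.13 ± 1.56, 6.68 ± 3.92 and 4.33 ± 1.67 CPM in the prepupa, at 72 h and at 6 d (SD, n = 3 each), all below the larval libraries. The forewing was not low throughout, with 12.6 ± 9.86 CPM at 6 d (SD, n = 3). On the other side, 3049 bp from the member at 965862 to 966114, the matched interval at 969164 to 969410 had 7.37, 16.6 and 16.2 CPM in the larval hindwing and 1.28, 2.18 and 2.90 CPM in the larval forewing (2.65, SE 0.43, edgeR adjusted p = 0.0204). That call was lost without either of 5th-instar hindwing replicates 2 and 3 or any one of the 5th-instar forewing libraries, at differences of 2.41 to 2.92.

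Farther along, the matched interval at 1048092 to 1048914 lay 855 bp from the 6 d-high member. It had 17.0 ± 4.35, 17.9 ± 3.54, 17.4 ± 3.27 and 23.5 ± 3.74 CPM in the 5th-instar, prepupa, 72 h and 6 d hindwing. The forewing had 6.76 ± 1.16, 11.3 ± 1.23, 5.29 ± 2.44 and 20.8 ± 3.42 CPM under the same labels (SD, n = 3 each; mean difference 0.97, SE 0.15, edgeR adjusted p = 0.0049). The hindwing mean was the higher under each shared label. Between the groups whose profiles were closest it was not always so, since the 72 h hindwing at 17.4 CPM was below the 6 d forewing at 20.8 CPM. The matched interval at 1033537 to 1034749, 2709 bp from the member at 1037459 to 1037603, had a mean difference of 0.90 (SE 0.15, edgeR adjusted p = 0.014). A pair lay near the member at 1075112 to 1075422. At 1073747 to 1074298 the mean difference was 0.87 (SE 0.13, edgeR adjusted p = 0.00721), although under the 6 d label the forewing was higher, with 35.5 ± 4.81 CPM against 10.8 ± 1.30 CPM in the hindwing (SD, n = 3 each). Those 2 groups were not the closest by profile. The 72 h hindwing, closest to the 6 d forewing, had 29.5 ± 3.12 CPM there. The prepupa forewing, closest to the 6 d hindwing, had 5.51 ± 1.92 CPM. At 1072957 to 1073604 the larval hindwing had 14.7, 17.3 and 13.8 CPM and the larval forewing 4.11, 4.79 and 4.74 CPM (1.74, SE 0.27, edgeR adjusted p = 0.0145). The last call was lost without 5th-instar hindwing replicate 2 or any one 5th-instar forewing library, at differences of 1.66 to 1.78.

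Near members, 2 matched intervals were lower in the hindwing over the mean of stages. On contig 000027F, 519692 to 519961 lay 1502 bp from a hindwing-only interval of 136 counts at 521464 to 521714. It had 1.05, 3.03 and 2.14 CPM in the larval hindwing and 15.9, 12.9 and 17.9 CPM in the larval forewing (-2.87, SE 0.39, edgeR adjusted p = 0.00261). On contig 000006F, 1374533 to 1375090 had a mean difference of -1.10 (SE 0.15, edgeR adjusted p = 0.00285), with 151 ± 26.7 CPM in the 72 h forewing (SD, n = 3). A hindwing-only interval therefore also occurred beside sites that were more open in the forewing.

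The count of called pairs near members depended on how intervals were matched. Shares of all tested pairs under the settings that follow are not given here, so the counts describe the pairs near members alone. With 50% reciprocal overlap, 18304 pairs lay within 5 kb of a member and 1019 were called higher in the hindwing, 25 of them in the stretch, and 361 lower. With 95% overlap, 1917 pairs remained, 3 in the stretch, and edgeR called none higher, with 93 at an unadjusted p under 0.05. Without prepupa hindwing replicate 2, 39 were higher and 53 lower, and 6 of the 39 were in the stretch. Without any one of 9 other libraries (5th-instar replicates 2 and 3, prepupa replicates 1 and 3 and 6 d replicates 1 and 2 of the hindwing, and 5th-instar replicates 1 and 2 and 72 h replicate 2 of the forewing), 3 were higher, all in the stretch.

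Hindwing-only intervals were scattered over the assembly with a few concentrations. Of 6159 windows of 100 kb, 2172 (35.3%) held at least 1 member, 105 held 5 or more and the highest number was 10. Only 120 members directly followed another member in the hindwing list. The fullest window, 800001 to 900000 of contig 000150F, had 10 members among 143 hindwing intervals, with sums of 100 to 189, and 6 of them were highest in the prepupa. Contig 000006F from 2500001 to 2600000 had 9 among 111, of which 8 were highest in the prepupa and 6 changed over the stages, among them the prepupa interval at 2580733 to 2581055. Contig 000005F from 2300001 to 2400000 had 8 among 152, and none of these 8 passed the stage test. By share of intervals, the first 100 kb of contig 000445F led with 3 of 14, followed by 2 of 10 at 100001 to 200000 of contig 000219F and 6 of 39 in the first 100 kb of contig 000475F.

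Contigs differed in their share of hindwing-only intervals. Among 284 contigs with at least 100 hindwing intervals of 100 or more counts, hindwing-only intervals made up a median of 1.52% of those intervals, from 0 on 14 contigs to 12.3% on contig 000239F (28 of 228). Contig 000137F followed with 43 of 382 (11.3%), while it had 1 forewing-only interval. Contig 000132F had 43 of 721 (5.96%), also with 1 forewing-only interval. On these last contigs the median of the matched intervals was also above 0, with a difference of 0.14 on the log2 scale over 135 pairs of contig 000137F and 0.16 over 303 pairs of contig 000132F. The difference was positive for 70.4% and 71.9% of the pairs. None of these pairs was called by edgeR on its own. Contig 000137F took 0.0460% to 0.129% of each hindwing library, with a median of 0.0888%, and 0.0455% to 0.0803% of each forewing library, with a median of 0.0582%, so that the wings overlapped.

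A set of contigs moved together in single libraries, and it held a larger share of hindwing-only intervals than the other contigs with at least 20 forewing intervals. In 25 contigs covering 19.2 Mb, each of 3 forewing libraries (prepupa replicate 3, 72 h replicate 2 and 6 d replicate 3) held at least 0.5 log2 units more of its counts than the mean of the other 2 libraries of its group. The libraries were chosen after their values were seen. On the same contigs, hindwing intervals other than members were raised in 72 h replicate 3 (median log2 ratio 1.22), 6 d replicate 3 (0.87) and prepupa replicate 2 (0.80). The hindwing-only intervals of these contigs numbered 283 of 7150 intervals with 100 or more counts (3.96%), against 3778 of 229975 (1.64%) on the other contigs with at least 20 forewing intervals. Contigs with fewer forewing intervals had 30 of 466 (6.44%), a higher share than the raised contigs. The forewing-only share was 2.35% on the raised contigs and 2.14% on the others. In the members of the raised contigs, 72 h replicate 3 had 2.59 times the mean of the other 72 h libraries and 6 d replicate 3 had 1.89 times the mean of its group. On the other contigs the ratios were 1.03 and 1.02. Prepupa replicate 2 had 1.02 times the mean of its group on the raised contigs and 0.649 times on the others. In the 30 members on contigs with fewer forewing intervals, all 3 of these libraries were low instead. There the ratios were 0.301 for 72 h replicate 3, 0.385 for 6 d replicate 3 and 0.232 for prepupa replicate 2. Of the contigs named for their high share, 000239F, 000209F, 000149F and 000183F belong to this set, and 000137F, 000132F and 000025F do not. Without the raised contigs, the stage test called 522 members, with 135 higher in the prepupa and 199 lower at 72 h. It passed 14.6% of 3539 tested members on the other contigs with at least 20 forewing intervals and 16.2% of 271 on the raised contigs. Of all tested intervals, 39.1% passed. What sets the raised contigs apart was not tested.

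**Figure D5:**
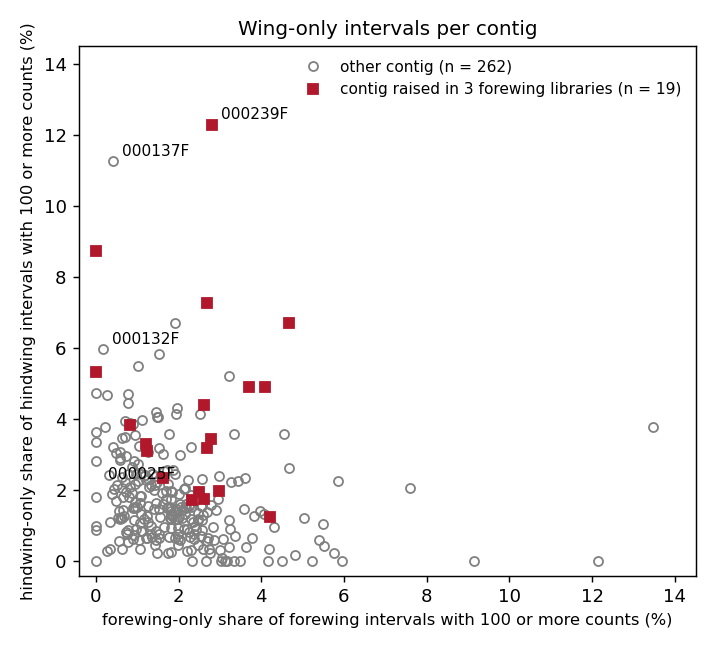
Hindwing-only share of hindwing intervals with 100 or more counts (y axis, %) against the forewing-only share of forewing intervals with 100 or more counts (x axis, %), for 281 contigs with at least 100 such intervals in both tables. Red squares are the 19 of these contigs that were raised in 3 forewing libraries and open circles are the other 262. Contig 000239F stands at 12.3% hindwing-only, and contig 000137F at 11.3% hindwing-only with 0.408% forewing-only.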

How the data were processed

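Read counts per ATAC-seq interval were deposited by the authors as whole numbers, in one table for 12 hindwing and one for 12 forewing libraries, and the submitters' processing notes name Bowtie2 and deepTools without versions. Neither the peak caller nor the genome build is given in the sources used here. Columns were assigned to samples by their labels. Counts were used as deposited, with total counts in peaks of 6977525 to 14795457 per hindwing library and 7733254 to 22020858 per forewing library. The members, lists and tests were chosen with earlier results of these data known.

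Intervals passed a filter on low counts (filterByExpr, minimum count 10, minimum total 15), were scaled with TMM factors and tested with edgeR 4.0.16 (R 4.3.3) quasi-likelihood F tests over all hindwing intervals, with Benjamini-Hochberg adjusted p under 0.05. Each stage was compared with the mean of the other 3, and the wings over matched intervals of at least 80% reciprocal overlap. Scripts were tested on simulated data. CPM values are TMM-scaled. Each SE of a log2 difference was derived from the test, as the size of the difference over the square root of its F statistic.

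Named intervals were the 5 with the highest sums, up to 3 called higher and 2 called lower per stage by size of difference (at least 5 CPM in the higher group, no overlap between libraries), the 3 widest, the 3 farthest from the forewing list, the 3 steadiest with a mean of at least 5 CPM, those at the minimum count, 3 windows by number and 3 by share, and, for the wings, 3 matched intervals per direction within 5 kb. Replicate numbers were not taken as pairs: deviations of same-numbered hindwing libraries correlated at -0.088 to 0.19, and 2 of 18 pairs exceeded 0.1. DESeq2 1.42.0, other scalings, filters, overlaps and left-out libraries were alternatives. No genome was used, so no sequence is shown.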

Additional observations from a re-analysis of the deposited data

How the results depend on the processing

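Most hindwing-only intervals had few counts per library, which limits single calls, and no interval is tied to a gene. The number of members was 29702 with a summed count of at least 50 and 118 with at least 200, and 1794 to 3444 when single libraries were left out. With library totals alone, 1231 members changed over the stages, with 36 higher and 46 lower in the 5th instar, 368 and 1 in the prepupa, 29 and 757 at 72 h, and 539 and 126 at 6 d. With at least 50 counts in 3 libraries, 6 members were left to test: 6 changed, with 1 higher and 1 lower in the 5th instar, 5 and 0 in the prepupa, 0 and 4 at 72 h, and 0 and 1 at 6 d. At an unadjusted p under 0.05 edgeR gave the same prepupa and 6 d counts and 0 and 5 at 72 h. DESeq2 called 57 higher in the prepupa, and near members 28 matched intervals higher and 23 lower over the mean of stages and 8 and 2 at the 5th instar. Without the 3 prepupa libraries, a setting added after the data were seen, 309 members changed. The cause of these shifts was not tested, apart from fewer intervals tested or fewer libraries. Shares of all tested intervals under these settings are not given here, so the counts describe the members alone.

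Leaving out single libraries gave 392 to 605 changed members. In the 5th instar 36 to 86 were higher and 6 to 38 lower, in the prepupa 47 to 182 and 0 to 4, at 72 h 46 to 91 and 94 to 245, and at 6 d 80 to 202 and 155 to 251. Near members, 3 to 39 matched intervals were higher and 2 to 53 lower over the mean of stages, and 1 to 3 were higher and 1 to 1 lower at the 5th instar. With 50% reciprocal overlap these were 1019 and 361 over the mean and 37 and 12 at the 5th instar. Shares of all tested pairs under these settings are not given here either. With 95% they were 0 and 1 over the mean and 0 and 0 at the 5th instar, where 70 and 23 had an unadjusted p under 0.05 by edgeR. Within 1 kb of a member there were 3 and 0 over the mean and 1 and 0 at the 5th instar, and within 20 kb 5 lower over the mean and 5 higher at the 5th instar. Over 32 results on named intervals, 663 alternative values were computed, of which 16 lost the call and 0 changed sign.

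With the replicate number as a block, 450 members changed, with 56 higher and 24 lower in the 5th instar, 106 and 3 in the prepupa, 73 and 179 at 72 h and 161 and 224 at 6 d. For the wings the block gave 7 and 2 over the mean, with 1 of the 7 outside the stretch of contig 000025F, and 3 and 1 at the 5th instar. Same-numbered libraries of the wings correlated at -0.13 to 0.41, with 4 of 12 pairs over 0.1, when wings were paired by stage label, so the numbers were not taken as pairs. By profile, the closest forewing library carried the same number for 11 of 12 hindwing libraries (r = 0.41 to 0.815), a hint from the data and not from the design, and a fit paired in that way was not run.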
